A study of Mus musculus with 2 samples.

Results

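The genes examined were the 8 mouse genes for pore-forming alpha subunits of voltage-gated calcium channels named Cacna1a, Cacna1b, Cacna1c, Cacna1d, Cacna1e, Cacna1g, Cacna1h and Cacna1i. They were taken by name from GENCODE M21, which holds 21938 protein-coding genes. The rule used no measured value, but earlier results of these data were known when the genes were chosen. The question was where in and around these genes the chromatin of the adult cortex was open. Accessibility had been measured by DNase-seq, in which the enzyme DNase I cuts DNA that is not wrapped in nucleosomes and the cut ends are sequenced. There were 2 libraries of 1 group. Both came from right cerebral cortex of B6CASTF1/J males at 2 months of age, with no treatment and no other group. Replicate 1 was animal 5 and replicate 2 was animal 6, although the labels give both animals the same donor record. B6CASTF1/J animals are F1 hybrids with a C57BL/6J and a CAST/EiJ parent, so autosomal genes are present as an allele of each strain, and the deposited peaks do not separate the alleles. The material was whole tissue, so all cell types of the cortex contribute. With 1 group of 2 libraries no contrast could be tested, and each value below is given for replicate 1 and then for replicate 2.

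Each alpha subunit is a large membrane protein that forms the pore, senses voltage and gives the channel its current type. The Cav2 family (Cacna1a, P/Q-type; Cacna1b, N-type; Cacna1e, R-type) supplies the calcium that triggers transmitter release at nerve terminals. The Cav1 or L-type family (Cacna1c and Cacna1d in brain) sits mainly on cell bodies and dendrites, where its calcium signals reach the nucleus. The Cav3 or T-type family (Cacna1g, Cacna1h, Cacna1i) opens at negative voltages and drives rebound bursts, above all in the thalamus.

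For each library the stricter of a pair of deposited peak sets was used, with 91818 peaks in replicate 1 and 75245 in replicate 2. The height of a peak is the authors' signal value, with a median of 0.932 and 0.806 over all peaks, and how it was scaled is unknown, which limits comparisons of height to genes within a library. A footprint is a short stretch inside accessible DNA with few cuts, often where a protein is bound, and 394531 and 241645 were deposited. A promoter peak is a peak within 1000 bp of any annotated start of a gene. By that rule 63.4% and 59.3% of all protein-coding genes held a promoter peak in replicate 1 and replicate 2. All 8 pan-neuronal marker genes held one in both libraries and none of 6 liver genes did in either. Of the 6 markers of each other class, 6 and 4 excitatory, 2 and 2 inhibitory, 4 and 3 astrocyte, 3 and 2 oligodendrocyte, 1 and 0 microglial and 3 and 1 endothelial genes held one, and of 7 muscle and heart genes 4 and 2.

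The sequences below show the most accessible shared site at the start of each gene. Each is a window of 200 bp around the centre of the tallest peak found in both libraries at a start of a full-length transcript, meaning a protein-coding transcript that spans at least 50% of the gene. They were read from the C57BL/6J reference GRCm38.p6 on the strand of the gene, 5′ to 3′, and the CAST/EiJ allele can differ. Capitals mark bases in a deposited footprint of either library. Bases annotated as UTR were left out, 63 for Cacna1i and 2 for Cacna1b.
Cacna1a, chr8:84414431-84414630, plus strand: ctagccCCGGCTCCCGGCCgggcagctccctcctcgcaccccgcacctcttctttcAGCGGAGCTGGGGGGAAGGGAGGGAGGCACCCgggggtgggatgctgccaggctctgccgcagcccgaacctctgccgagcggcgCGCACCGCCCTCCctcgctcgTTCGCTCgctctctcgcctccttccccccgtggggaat
Cacna1b, chr2:24763153-24763350, minus strand: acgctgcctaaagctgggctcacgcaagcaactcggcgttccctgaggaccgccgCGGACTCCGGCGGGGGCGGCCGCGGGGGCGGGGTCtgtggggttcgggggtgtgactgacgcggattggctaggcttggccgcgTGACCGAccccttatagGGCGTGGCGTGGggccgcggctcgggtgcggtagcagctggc
Cacna1e, chr1:154726561-154726760, minus strand: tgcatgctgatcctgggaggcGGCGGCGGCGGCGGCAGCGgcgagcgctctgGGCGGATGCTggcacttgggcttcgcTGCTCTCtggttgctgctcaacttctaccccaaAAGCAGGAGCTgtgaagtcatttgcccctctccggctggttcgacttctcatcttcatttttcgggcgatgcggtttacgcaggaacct
Cacna1c, chr6:119109121-119109320, minus strand: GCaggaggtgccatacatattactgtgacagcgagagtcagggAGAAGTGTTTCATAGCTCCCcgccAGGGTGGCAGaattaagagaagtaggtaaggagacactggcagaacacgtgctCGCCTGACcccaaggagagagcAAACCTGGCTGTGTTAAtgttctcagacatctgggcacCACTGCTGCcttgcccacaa
Cacna1d, chr14:30352741-30352940, minus strand: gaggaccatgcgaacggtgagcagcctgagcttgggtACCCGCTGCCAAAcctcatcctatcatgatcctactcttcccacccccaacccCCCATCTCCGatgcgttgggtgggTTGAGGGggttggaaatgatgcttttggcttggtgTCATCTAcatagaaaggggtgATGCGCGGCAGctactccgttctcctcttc
Cacna1g, chr11:94474331-94474530, minus strand: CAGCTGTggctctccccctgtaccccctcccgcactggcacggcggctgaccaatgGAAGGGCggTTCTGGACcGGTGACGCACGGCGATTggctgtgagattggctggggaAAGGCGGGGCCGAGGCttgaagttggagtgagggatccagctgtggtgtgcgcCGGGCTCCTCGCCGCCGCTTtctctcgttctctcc
Cacna1h, chr17:25434062-25434261, minus strand: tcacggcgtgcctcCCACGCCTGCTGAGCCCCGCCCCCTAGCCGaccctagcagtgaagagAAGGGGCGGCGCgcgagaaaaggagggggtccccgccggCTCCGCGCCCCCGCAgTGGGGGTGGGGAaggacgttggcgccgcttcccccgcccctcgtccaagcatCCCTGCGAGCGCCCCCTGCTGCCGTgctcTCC
Cacna1i, chr15:80287101-80287237, plus strand: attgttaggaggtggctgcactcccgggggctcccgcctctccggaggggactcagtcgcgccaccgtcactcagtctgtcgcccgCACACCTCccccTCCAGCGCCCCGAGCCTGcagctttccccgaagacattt

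The peaks were centred between 37 bp (Cacna1i) and 833 bp (Cacna1a) upstream of a full-length start in every gene but Cacna1d, whose peak was centred 150 bp downstream of one and whose window held 16 coding bases. Their GC content had a median of 67.3% and they held a median of 18 CpG dinucleotides, against 63% and 15 over the 19815 shared promoter peaks of protein-coding genes. The Cacna1c window stood at the low end with 4 CpG and 53.5% GC, and the Cacna1b window at the high end with 26 CpG in the whole 200 bp.

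A second set of windows shows sites that were taller than the peak at the full-length start of the same gene. The Cacna1a window at the 3′ end of the gene lies wholly within coding sequence, and the other 4 lie in introns.
Cacna1a 3′ end, chr8:84639451-84639650, plus strand: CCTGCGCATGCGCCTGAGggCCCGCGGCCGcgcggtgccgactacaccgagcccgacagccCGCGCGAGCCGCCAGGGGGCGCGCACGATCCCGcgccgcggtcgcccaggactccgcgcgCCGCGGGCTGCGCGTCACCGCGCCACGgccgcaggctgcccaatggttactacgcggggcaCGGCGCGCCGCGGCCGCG
Cacna1a intron, chr8:84494801-84495000, plus strand: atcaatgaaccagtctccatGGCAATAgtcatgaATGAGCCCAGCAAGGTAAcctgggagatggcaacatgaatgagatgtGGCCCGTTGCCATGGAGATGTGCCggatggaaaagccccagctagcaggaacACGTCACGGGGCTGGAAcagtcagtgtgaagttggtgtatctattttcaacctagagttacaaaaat
Cacna1e intron, chr1:154729681-154729880, minus strand: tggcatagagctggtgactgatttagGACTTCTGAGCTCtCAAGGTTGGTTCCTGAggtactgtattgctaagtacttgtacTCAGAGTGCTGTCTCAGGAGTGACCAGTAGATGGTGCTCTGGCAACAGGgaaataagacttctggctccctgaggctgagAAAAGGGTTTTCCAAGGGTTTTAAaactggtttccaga
Cacna1c intron, chr6:119104371-119104570, minus strand: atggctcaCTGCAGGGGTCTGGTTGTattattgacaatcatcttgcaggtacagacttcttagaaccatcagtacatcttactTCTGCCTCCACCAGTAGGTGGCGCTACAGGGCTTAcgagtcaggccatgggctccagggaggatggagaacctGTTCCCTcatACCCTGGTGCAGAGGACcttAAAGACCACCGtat
Cacna1i intron, chr15:80289521-80289720, plus strand: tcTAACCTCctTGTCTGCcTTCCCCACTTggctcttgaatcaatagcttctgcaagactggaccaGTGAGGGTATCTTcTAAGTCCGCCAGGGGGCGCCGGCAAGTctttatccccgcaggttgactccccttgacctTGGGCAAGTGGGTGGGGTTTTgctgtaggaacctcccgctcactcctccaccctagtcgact

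All 8 genes held a promoter peak in each library. Among all 21938 protein-coding genes the share was 63.4% for replicate 1, 59.3% for replicate 2 and 58.7% for both together. The channel genes are long, with a median of 205536 bp. Whether longer genes have more annotated starts was not counted. Among the 5007 protein-coding genes of 50000 bp or longer the shares were 85.0%, 79.5% and 79.0% in both, so 8 of 8 is near what long genes showed. These long genes had a median of 99456 bp and were thus shorter than the channel genes. In whole tissue, fewer cells with an open site and less opening per cell cannot be told apart.

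The median height of the promoter peaks was lower than that of other genes, but the 8 genes lay on both sides of the other medians. The tallest promoter peak of the 8 genes had a median height of 1.86 and 1.05, against 3.02 and 2.17 over all protein-coding genes with a promoter peak and 2.50 and 1.77 over those of 50000 bp or longer. In both libraries 6 of the 8 genes lay below the median of all genes and 5 below that of long genes. Cacna1a and Cacna1b were the exceptions in the first comparison, joined by Cacna1g in the second. Cacna1a was above only through a peak near its 3′ end, described below. With only full-length starts of the 8 genes counted, 7 lay below the median of all genes in both libraries. By that rule 6 lay below the median of long genes in both. The medians themselves were taken over any start. A median splits genes evenly, so with 8 genes the counts of 6 and 5 over any start are not far from an even split. No count was tested. Among all peaks of the library, wherever they lay, the tallest promoter peaks of the 8 genes stood at percentiles 60.6 to 92.0 in replicate 1 and 43.5 to 94.1 in replicate 2.

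Among the Cav2 genes, Cacna1b, at chr2:24603887-24763152 on the minus strand, had its tallest promoter peak right at the annotated 5′ end of the gene. That peak, chr2:24763121-24763380, had a height of 3.36 in replicate 1 and 2.22 in replicate 2. The values placed Cacna1b at percentiles 55.5 and 51.5 of all genes with a promoter peak, the middle of the range.

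Cacna1a, at chr8:84388440-84640246 on the plus strand, had a tallest promoter peak of 3.40 and 2.82, at percentiles 56.3 and 66.4. This peak was not at the start of the channel transcript. It lay at chr8:84639321-84639780, near the 3′ end of the gene, beside the start of a noncoding transcript of 444 bp. It also lay in an exon, and the whole printed window is coding sequence of the full-length transcripts, with 81.5% GC and 42 CpG. At the full-length start of Cacna1a, 26924 bp downstream of the annotated 5′ end, the tallest peak was 1.47 and 1.08.

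Cacna1e, at chr1:154390731-154884501 on the minus strand, had its tallest promoter peak at 1.56 and 0.937, percentiles 22.9 and 14.9. The order at full-length starts within the family was thus Cacna1b highest in both libraries, with Cacna1a and Cacna1e lower and in opposite order in the 2 libraries.

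Of the L-type genes, Cacna1c, at chr6:118587240-119196418 on the minus strand, encodes the main L-type pore of brain and heart and was the longest gene of the set. Its tallest promoter peak was 2.13 and 1.17, percentiles 34.2 and 21.8. Cacna1d, at chr14:30039939-30491455 on the minus strand, encodes an L-type pore that opens at more negative voltages and paces heart and hair cells. Its tallest promoter peak was 1.20 and 0.745, percentiles 15.7 and 9.22. Cacna1c stood above Cacna1d in both libraries.

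Of the T-type genes, Cacna1g, at chr11:94408391-94474198 on the minus strand, encodes the pore of thalamic relay cells. It had a promoter peak of 2.57 and 1.91, percentiles 41.7 and 43.4. Cacna1i, at chr15:80287238-80398279 on the plus strand, known from the thalamic reticular nucleus, had 1.60 and 0.806, percentiles 23.5 and 10.99. Cacna1h, at chr17:25374285-25433783 on the minus strand, known from sensory neurons, had 1.15 and 0.730, percentiles 14.4 and 8.81. The 1.15 peak of Cacna1h lay downstream of its start and was found in replicate 1 only. The peak upstream of the start, found in both libraries, had heights of 1.03 and 0.730. Cacna1g was the highest of the T-type genes in both libraries and Cacna1h the lowest.

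Over full-length starts, Cacna1b, Cacna1g and Cacna1c were the 3 highest in each library, in that order in replicate 1 and replicate 2. Of the other 5 genes, Cacna1d and Cacna1h were the lowest in both libraries, whereas Cacna1a, Cacna1e and Cacna1i changed order between them. At each of these 8 starts replicate 1 was the higher library, as for most peaks. Over the 87 shared peaks around the 8 genes the ratio of replicate 1 to replicate 2 had a median of 1.40 (0.713 to 2.02), against 1.38 over all 60789 shared peaks.

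**Figure D1:**
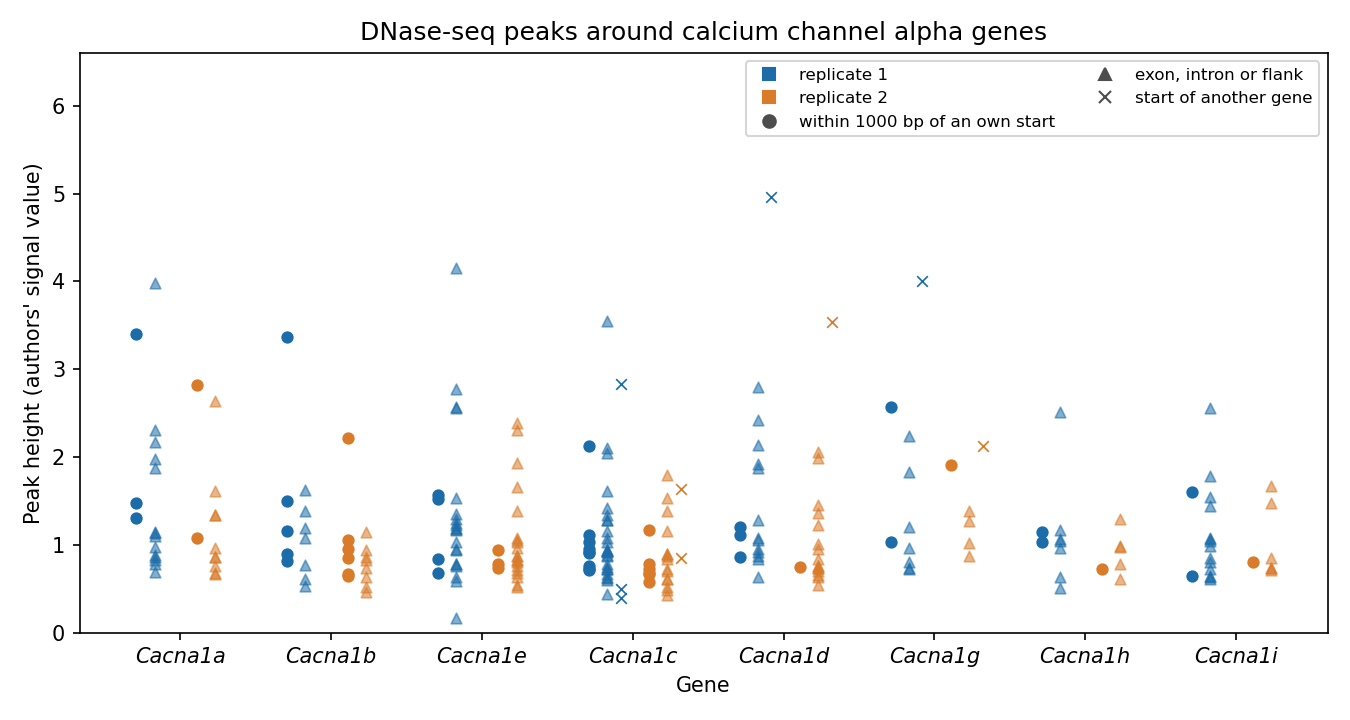
Height of every peak in each gene and 20000 bp on each side, in the authors' signal value, by gene (x axis) and library (blue, replicate 1; orange, replicate 2). Circles are peaks within 1000 bp of a start of the gene, triangles are peaks in its exons, introns or flanks, and crosses are peaks at the start of another gene. The highest triangles of Cacna1e, Cacna1c, Cacna1d, Cacna1h and Cacna1i lie above all circles of the same gene in both libraries.

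The 8 genes have 43 separate start groups, where starts no more than 2000 bp apart form 1 group. Of these, 12 hold a full-length transcript. Each gene had exactly 1 full-length start with a peak, the same one in both libraries. The other 4 full-length starts, 1 of Cacna1e, 2 of Cacna1c and 1 of Cacna1d, had no peak in either library. Of the 31 start groups of shorter or noncoding transcripts, 9 had a peak in replicate 1 and 4 of those 9 also in replicate 2. The share over such start groups of all protein-coding genes was not computed, so whether these counts are usual is unknown. A peak at a full-length start was found for 61.4% and 57.1% of the 21575 protein-coding genes that have such a start.

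For 3 genes the annotation therefore offered a choice of full-length starts, and in all 3 the peak was at exactly 1. Of the 2536 protein-coding genes with 2 or more separate full-length starts, 58.4% and 57.9% had a peak at exactly 1. In none of the 3 genes was it the start farthest upstream. How often this is so among the 2536 genes was not computed, so whether it is usual is unknown.

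In Cacna1c the open full-length start, used by 12 coding transcripts, spans chr6:119107975-119108573 and lies 87845 bp downstream of the annotated 5′ end. It held 5 peaks in each library. The deposited file of false discovery rates, which lists only bases with a rate under 0.05, listed 2591 and 2529 of the 2599 bp within 1000 bp of these starts, with a lowest rate of 3.00e-20 and 6.25e-15. The accessible stretch thus covered nearly the whole window. At the annotated 5′ end, chr6:119196231-119196418, where 4 coding transcripts begin, no base was listed in either library. The nearest peak there was 4168 bp away in replicate 1 and 20631 bp away in replicate 2. The full-length start farther downstream, chr6:119080007, had no strict peak but was not blank, with 591 and 75 listed bases and a lowest rate of 0.000742 and 0.0205. In the broader peak set it counted as open.

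In Cacna1d the open full-length start spans chr14:30352991-30353486, 137969 bp downstream of the annotated 5′ end. Here 1695 and 1217 bases were listed, with a lowest rate of 4.72e-07 and 0.000185. At the start at the 5′ end, chr14:30491156-30491455, no base was listed in either library. The nearest peak to it, 11556 and 11456 bp away, belonged to another gene, as described below.

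In Cacna1e the open full-length start spans chr1:154725920-154726356, 158145 bp downstream of the annotated 5′ end. It had 1030 and 617 listed bases, with a lowest rate of 3.07e-08 and 3.96e-05. The other full-length start, chr1:154864067, had no listed base in either library. The nearest peak lay 1984 and 1954 bp from it, with heights of 1.19 and 1.08, so a window of 2500 bp would count this start as open. Repeats cover 96.6% of the 1000 bp around it.

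**Figure D2:**
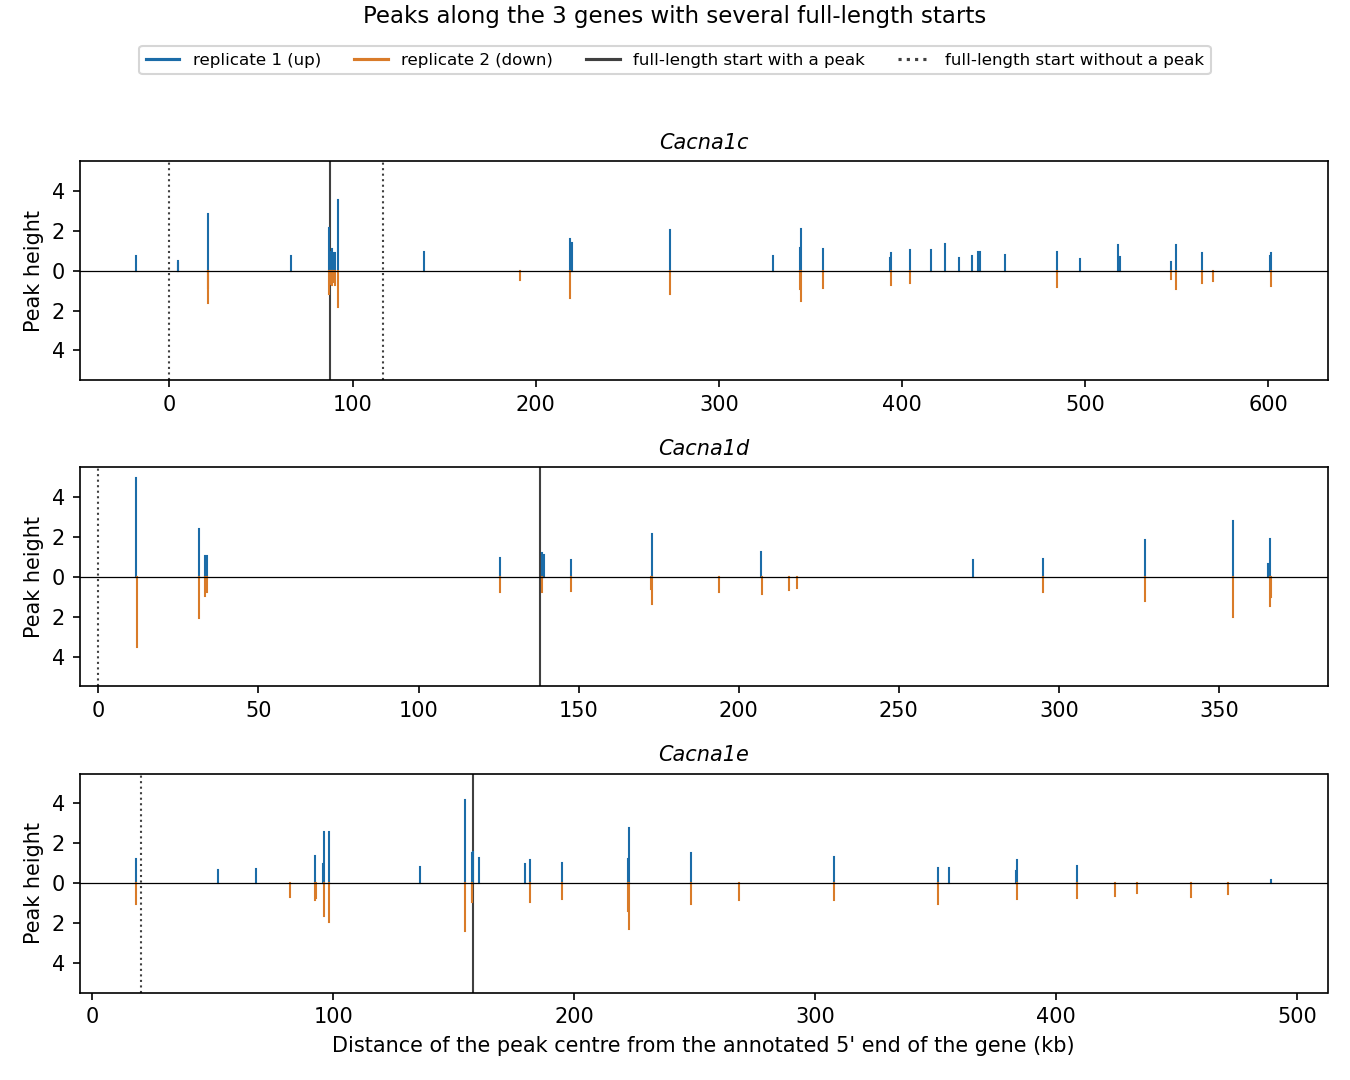
Peaks along Cacna1c, Cacna1d and Cacna1e, by distance of the peak centre from the annotated 5′ end of the gene in kb (x axis) and height in the authors' signal value (y axis; replicate 1 upward in blue, replicate 2 downward in orange). Solid lines mark the full-length start with a peak and dotted lines the 4 without, which stand nearer the 5′ end except for 1 start of Cacna1c.

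With the strict peaks and the window of 1000 bp, open and closed full-length starts did not overlap in CpG number. This separation depends on the rule. The broader peak set opens the Cacna1c start with 15 CpG, and a window of 2500 bp opens the Cacna1e start with 9. A window of 500 bp closes the Cacna1a start with 92. In the 1000 bp around the start, the 8 open ones held 50 to 123 CpG dinucleotides and the 4 closed ones 9 to 19. Cacna1c showed both, with 123 CpG at the open start and 17 and 15 at the closed ones. Cacna1d had 58 at the open and 19 at the closed start, and Cacna1e had 50 and 9. The T-type genes, each with 1 full-length start, had 80 in Cacna1g, 109 in Cacna1h and 115 in Cacna1i, and Cacna1a and Cacna1b had 92 and 105. Among all protein-coding genes with 2 or more full-length starts, the 2211 starts open in both libraries had a median of 60 CpG and 59.0% GC. The 2822 open in neither had medians of 12 CpG and 46.7% GC. Whether the ranges of these 2 sets overlap was not examined. Of the open channel gene starts, only those of Cacna1c, Cacna1d and Cacna1e belong to such genes, so the others have no matching set here. Within the open starts, more CpG did not always go with a taller peak. Cacna1h with 109 CpG had a lower peak than Cacna1g with 80 in both libraries. Other pairs went the other way, such as Cacna1b with 105 above Cacna1d with 58. No association over the 8 starts was computed.

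**Figure D3:**
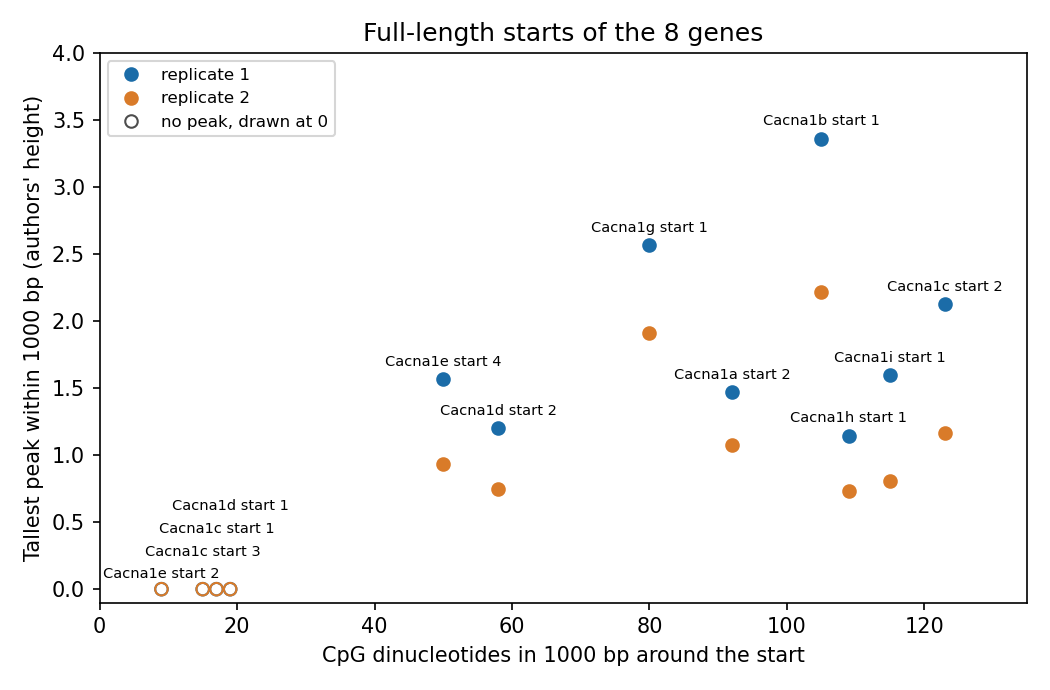
Tallest peak within 1000 bp of each full-length start (y axis, the authors' signal value) by the number of CpG dinucleotides in the 1000 bp around it (x axis), for the 12 full-length starts of the 8 genes in replicate 1 (blue) and replicate 2 (orange). Open circles are starts without a peak, drawn at 0. They hold 9 to 19 CpG, and the starts with a peak hold 50 to 123.

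The accessible sites were not confined to starts. Summed over the 8 genes, each with 20000 bp on each side, there were 145 peaks in replicate 1 and 109 in replicate 2. The mean of these totals was 127 ± 25.5 (SD, n = 2). The median gene had 16.5 and 13, against 7 and 6 for protein-coding genes of 50000 bp or longer and 4 and 3 for all. Per 100000 bp the channel genes had a median of 6.01 and 4.47, against 4.59 and 3.83 for long genes and 5.62 and 4.56 for all, so per unit of length the difference was small. Cacna1c had 39 and 23 and Cacna1e 25 and 23, so Cacna1c had the most in replicate 1 and both shared the highest number in replicate 2. Cacna1a had 17 and 12, Cacna1d 17 and 18, and Cacna1b 12 and 14. The T-type genes had 10 and 6 in Cacna1g, 9 and 6 in Cacna1h, and 16 and 7 in Cacna1i.

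Most of these peaks were intronic. Of 145 and 109 peaks, 95 and 77 lay in introns (65.5% and 70.6%), 30 and 21 at an own start, 6 and 2 in exons, 9 and 5 in the flanks, and 5 and 4 at the start of another gene. Of the peaks around the channel genes 60.0% and 79.8% overlapped a peak of the other library by at least 1 bp, against 66.2% and 80.8% of all peaks. A footprint lay in 88.3% and 90.8% of them, against 86.0% and 83.3% of all peaks.

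Peaks merged over the libraries gave 165 sites, with 86 in both libraries, 58 in replicate 1 only and 21 in replicate 2 only. Cacna1c had 42 sites, 20 of them in both libraries and 19 in replicate 1 only. In Cacna1i 7 of 16 sites were in both and the other 9 in replicate 1 only. Cacna1g and Cacna1h also had no site in replicate 2 only, whereas Cacna1b had 4 sites in each library alone.

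**Figure D4:**
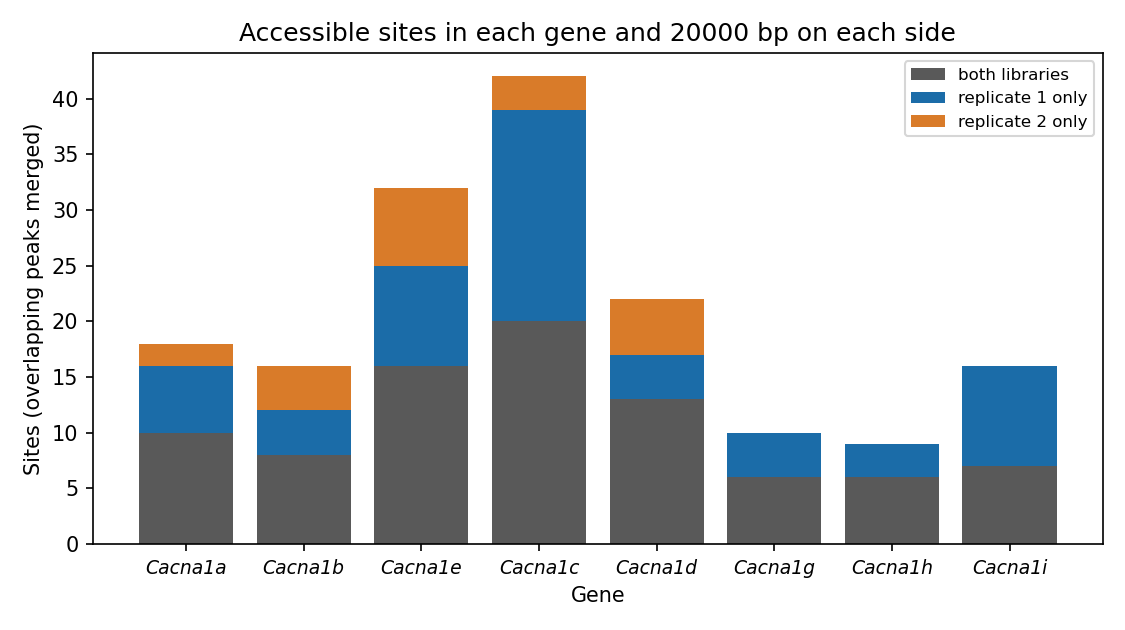
Number of accessible sites in each gene and 20000 bp on each side (y axis), after merging peaks that overlap between libraries, split into sites found in both libraries (grey), in replicate 1 only (blue) and in replicate 2 only (orange). Cacna1c has 42 sites and Cacna1h 9, and the T-type genes have no site in replicate 2 only.

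In most of the genes a site away from the starts was taller than the promoter. A peak over 1000 bp from any start, called distal here, was taller than every promoter peak of the gene in 6 of 8 genes in replicate 1 and in 5 of 8 in replicate 2. Among protein-coding genes of 50000 bp or longer with a promoter peak this held for 33.5% and 32.0%. Genes of 50000 bp or longer had a median length of 99456 bp, against 205536 bp for the channel genes. Their median number of peaks was 7 and 6, against 16.5 and 13. The groups were not matched, and whether the difference goes with length or number of peaks was not tested. The 5 genes in both libraries were Cacna1e, Cacna1c, Cacna1d, Cacna1h and Cacna1i. Cacna1a was the additional gene in replicate 1, and counts in both libraries when only its full-length start is taken. In Cacna1b and Cacna1g no distal peak exceeded the tallest promoter peak in either library.

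In Cacna1e the tallest distal peak, chr1:154729681-154729880, had heights of 4.16 and 2.39. It lay in an intron 3425 bp upstream of the open full-length start and was 2.66 and 2.55 times as tall as the peak at that start. The printed window holds no CpG, and 102 of its bases lie in a footprint of either library. Further distal peaks of Cacna1e stood at chr1:154661561-154661760, with 2.78 and 2.31, and at chr1:154786281-154786480, with 2.57 and 1.94.

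In Cacna1a the intronic peak chr8:84494801-84495000 had heights of 3.99 and 2.63, against 1.47 and 1.08 at the full-length start, which lies 79117 bp upstream. Its 3 footprints in replicate 1 each overlapped one of replicate 2. The next distal peaks of Cacna1a had 2.30 and 1.34 at chr8:84592101-84592300, and 1.98 and 1.61 at chr8:84520101-84520660. The last of these was a wide site with 12 and 9 footprints.

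In Cacna1c the tallest distal peak, chr6:119104381-119104560, had heights of 3.55 and 1.80 and lay in an intron 3504 bp downstream of the open full-length start. It was 1.67 and 1.54 times as tall as the peak at that start. Cacna1e and Cacna1c thus both had their tallest site within a few kb of the open start, on opposite sides of it. Other distal peaks of Cacna1c reached 2.10 and 1.53 at chr6:118851221-118851460, and 2.05 and 1.16 at chr6:118922961-118923160.

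In Cacna1d the tallest shared distal peak by the mean of both libraries, chr14:30137101-30137260, had 2.79 and 1.99 and lay 215810 bp downstream of the open start. A peak nearer the 5′ end, chr14:30459961-30460120, had 2.42 and 2.06 and was the taller of the pair in replicate 2. Another, chr14:30318361-30318640, had 2.14 and 1.37. All 3 were above the Cacna1d promoter peak of 1.20 and 0.745 in both libraries.

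In Cacna1i the peak chr15:80289521-80289720, in an intron 2087 bp downstream of the start, had 2.55 and 1.67. It is so close to the start that a promoter window of 2500 bp takes it in. A peak 8697 bp upstream of the gene, chr15:80278421-80278660, had 1.78 and 1.47, again above the promoter's 1.60 and 0.806 in both libraries. In Cacna1h the intronic peak chr17:25397961-25398120 had 2.51 and 1.30, and the next, chr17:25419121-25419254, had 1.16 and 0.991.

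Cacna1b and Cacna1g showed the other pattern. The tallest shared distal peak of Cacna1b by the mean of both libraries, chr2:24717521-24717820, had 1.38 and 1.14. Another, chr2:24755401-24755600, was taller in replicate 1, with 1.62 and 0.822. Both were under the promoter's 3.36 and 2.22. That of Cacna1g, chr11:94404781-94404966, lay beyond the 3′ end of the gene and had 2.24 and 1.39, against 2.57 and 1.91 at the promoter.

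Some of the tallest peaks around the channel genes belonged to other genes. The tallest peak within Cacna1d was at a start of Dcp1a, which encodes an mRNA decapping factor. It was chr14:30479541-30479600, with a height of 4.96 in replicate 1, and chr14:30479401-30479700, with 3.53 in replicate 2. The related decapping gene Dcp1b has a start within Cacna1c, with a peak at chr6:119175081-119175340 of 2.84 and 1.64. Each decapping gene starts on the strand opposite to the channel gene, between its annotated 5′ end and its open full-length start. Near Cacna1g, a start of Spata20 held a peak at chr11:94486141-94486360 of 4.01 and 2.12. None of these was counted as a promoter peak of a channel gene.

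Footprints in the promoter peaks of the 8 genes numbered 85 and 46, with a median of 9 and 5 per gene, against 8 and 5 for long genes with a promoter peak. Cacna1a and Cacna1c had the most in replicate 1, 20 each, and 13 and 10 in replicate 2. Cacna1e had 14 and 7, Cacna1b 8 and 8, and Cacna1d 10 and 1. Among the T-type genes Cacna1g had 7 and 2, Cacna1h 5 and 2, and Cacna1i 1 and 3. The footprints of the libraries did not always fall on the same bases. In the printed promoter windows 32 bases of Cacna1a and 28 of Cacna1h lay in footprints of both libraries, and 0 of Cacna1d did. At the 3′ end of Cacna1a, 83 bases did, and all 5 footprints of replicate 1 in that window overlapped one of replicate 2.

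Short consensus words of transcription factors were searched on both strands of the printed windows, as a description of the letters and not of binding. N stands for any base, and positions count from 1 at the 5′ end of a window. The Sp1 word GGGCGG was in 5 of the 8 promoter windows, all but those of Cacna1c, Cacna1d and Cacna1i, and in 48.0% of all shared promoter peaks. In 3 of them, Cacna1a at position 146, Cacna1b at 69 and 81 and Cacna1h at 31 and 65, it lay in a footprint of both libraries, allowing 5 bp beyond either end of the footprint. This was so in 26.9% of all shared promoter peaks. The EGR word GCGNGGGCG, which can overlap the Sp1 word, was in 2 of 8 windows and in 7.62% of all. In Cacna1b it occurred at positions 65 and 77, overlapping the Sp1 words, within a footprint of both libraries that is seen as the longest run of capitals in that window. The EGR word lay in a footprint of both libraries in 4.27% of all shared promoter peaks. In Cacna1h it occurred at 106 in a footprint of replicate 1.

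The E-box word CACGTG was in the Cacna1c window only, at position 113 and outside any footprint, and in 7.37% of all promoter peaks. The CTCF word AGGNGGC was in 4 of 8 promoter windows, against 32.5% of all. It lay in a footprint of both libraries in Cacna1h alone (12.5% of the 8, against 12.4% of all). The words CRE TGACGTCA, NRF1 GCATGCGC, AP-1 TGANTCA, MEF2 TATTTTTAG, NeuroD CAGATGG, YY1 AAGATGGCG and those of REST, TTCAGCACC and GGACAGCGC, were in 0 of 8. Each of these is in at most 4.09% of all promoter peaks. The Cacna1d window held none of the words. The 3′ window of Cacna1a held the NRF1 word, in overlapping matches at positions 4 and 6, and the CTCF word at 75, each in a footprint of both libraries.

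The same words were searched at the distal sites. Of the 64 shared distal peaks around the 8 genes, 16 (25.0%) held the CTCF word in the 200 bp around their centre, against 24.5% of 38701 shared distal peaks, and in 11 (17.2%) it lay in a footprint of both libraries, against 13.0% of all. The tallest shared distal peak by mean height was among these 11 in 4 genes, Cacna1c at position 99, Cacna1g at 83, Cacna1h at 47 and 121, and Cacna1i at 90. How often the tallest distal peak of other genes holds the CTCF word in this way was not computed. Whether 4 genes is more than usual is unknown. In the printed Cacna1c and Cacna1i windows the word sits in the longest run of capitals. The AP-1 word was in 17 of 64 (26.6%), against 14.4% of all. Cacna1c, Cacna1e and Cacna1i had 4 such peaks each, Cacna1d 3, Cacna1a and Cacna1b 1 each, and in 3 of the 17 it lay in a footprint of both libraries (4.69% of the 64, against 2.15% of all). The NeuroD word was in 9 of 64 (14.1%), against 12.7% of all. The E-box word was in 2 of 64 (3.1%), against 4.29% of all, and in 1 of the 2 in a footprint of both libraries. The REST word TTCAGCACC was in 2 of 64 (3.1%), against 0.287% of all, and in 0 of the 2 in such a footprint. The words CRE, NRF1, EGR, MEF2, YY1 and REST GGACAGCGC were in 0 of 64. Each of these is in at most 0.889% of all. The Sp1 word was in 8 of 64 (12.5%), against 8.19% of all. In 4 of the 8 it lay in a footprint of both libraries (6.25% of the 64, against 3.51% of all).

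The remaining genes of the family and the partners of the channels were examined by the same promoter rule, beside the 63.4% and 59.3% of all protein-coding genes. Of the other alpha genes, Nalcn, which encodes a sodium leak channel, had 2.01 and 1.08. Cacna1s, the skeletal muscle L-type gene, had a peak of 1.90 in replicate 1 only, which also lies within 1000 bp of an Ascl5 start, and Cacna1f, the retinal L-type gene, had none in either library.

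The beta subunits, which carry the pore to the membrane, had a promoter peak in 4 and 3 of 4 genes. Cacnb3 had heights of 2.08 and 1.65, Cacnb4 1.71 and 1.08, and Cacnb2 1.44 and 0.875. Cacnb1 had one in replicate 1 only. The alpha2delta subunits, extracellular partners that bind gabapentin in some members, had one in 4 of 4 in each library, led by Cacna2d4 with 1.96 and 1.23, whose peak also lies near a start of Lrtm2. Cacna2d2 had 1.58 and 0.952 and Cacna2d1 1.56 and 0.891. These values lie within the range of the alpha genes themselves.

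Of the 8 gamma subunit genes 4 and 3 had a promoter peak. Cacng2, known as an AMPA receptor partner, had 2.89 and 1.73, Cacng8 2.35 and 1.58, and Cacng3 1.93 and 1.33. Cacng4, another AMPA receptor partner, and Cacng1, the skeletal muscle subunit, had none in either library. All 9 genes of the active zone, the release site to which Cav2 channels are tethered, had a promoter peak in each library, the tallest being Ppfia3 with 6.08 and 3.87, near a start of Lin7b. Pclo had 3.74 and 2.44 and Unc13a 3.44 and 2.47.

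Of 6 genes for intracellular calcium release channels 5 and 4 had one, with Itpr1 at 5.00 and 3.69, Ryr3 at 1.496 and 1.21 and Ryr1 at 0.958 and 0.822, and Itpr3 had none in either library. Of the genes for calmodulin, which binds the tail of Cav1 and Cav2 pores, Calm3 had a promoter peak of 8.56 and 4.83 and Calm2 one of 5.62 and 3.56. The highest of these partners thus exceeded the tallest promoter peak of any of the 8 alpha genes in both libraries.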

How the data were processed

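Peaks, false discovery rates per base and footprints of 2 DNase-seq libraries were used. Per the deposited descriptions, each library was called on its own from filtered mm10 alignments, with no pooling. The aligner, callers, versions and depth were not given in the sources used here. Hence single peaks carry no stated precision. The peak height is a signal value as deposited by the authors. The false discovery rate, as the authors deposited it, is a q-value and covers only bases under 0.05. The deposited footprints carry the constant 0.01 and no score. Names and lengths of all 21 chromosomes were checked against GRCm38.p6.

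Genes came from GENCODE M21. The smaller peak set of each library was used; 2.26% and 1.38% of its peaks began inside an earlier peak. Each peak got 1 place, the first that applied of own start, start of another gene, exon, intron and flank. Shared peaks overlapped by at least 1 bp. The rule for full-length starts (50% of the gene, groups split at gaps over 2000 bp) was added after the data were seen. The members and lists were chosen with earlier results of these data known. Named were all members, up to 3 shared distal peaks of each, and per list up to 3 genes with the tallest promoter peaks by the mean of both libraries and up to 2 with none. 1 gene that this rule selects is not reported here. Genes named beyond these, such as Dcp1a, Dcp1b, Spata20, Cacna1s and Cacnb1, were chosen after their values were seen. Alternatives were other peak sets, windows, flanks, starts and overlaps, and each library left out. The code (Python 3.11.15, numpy 2.4.6, matplotlib 3.10.9) was tested on simulated data.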

Additional observations from a re-analysis of the deposited data

How the results depend on the processing

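Over 7 main results and 51 alternatives, 47 values stayed within 1.5 times the main value for counts, or within 1 SD of the 2 libraries for other values, and 4 moved. Leaving out 1 of 2 libraries cannot pass the limit of 1 SD. A promoter peak was found for 4 of the 8 genes, not 8, when only the annotated 5′ end of the gene counted as a start. The share of all protein-coding genes by that rule was not computed. The mean number of peaks around the genes was 253.5 in the broader peak set and 77.5 among the taller 50% of peaks, against 127. The mean number of footprints in promoter peaks was 110.5 in the broader set, against 65.5. Without replicate 1 or without replicate 2, 109 to 145 peaks and 46 to 85 footprints were counted, and the 8 genes with a promoter peak and the 8 open full-length starts stayed 8. The number of open full-length starts was 7 with a window of 500 bp, 9 with 2500 bp, 9 in the broader set and 7 among the taller 50% of peaks. For single genes 13 of 88 alternatives moved a value. The mean promoter height of Cacna1a fell from 3.11 to 1.27 when only full-length starts counted, and that of Cacna1i went from 1.20 to 2.11 with a window of 2500 bp. The number of peaks around Cacna1i was 7 without replicate 1 and 16 without replicate 2. The cause of these moves beyond the changed rule was not tested. No paired analysis was possible because the series has 1 group of libraries and no contrast.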
